A study of Mus musculus with 24 samples.

Results

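A group of 10 genes makes up the set of cohesion regulators and condensins described here, out of 19937 genes read on the arrays. They are Esco1, Esco2, Hdac8 and Cdca5, which act on the cohesin ring, and Smc2, Smc4, Smc5, Ncaph, Ncapd2 and Ncapg, which build condensin I and the Smc5 arm of the SMC5/6 complex. They were chosen by name, with earlier results of these data known. Each was represented by the probe set, a group of probes to 1 transcript, that was brightest over the 24 arrays. RNA came from both hindlimb buds of 12 wild type mouse embryos and 12 Nipbl+/- littermates, stage-matched at E10.5, with 1 Affymetrix Mouse Gene 1.0 ST array per embryo. Nipbl+/- embryos, of the RRS strain, carried 1 mutant copy of Nipbl, the gene for the factor that loads cohesin on DNA, in every cell and not in the limb alone. No other allele or agent was given for either group.

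Cohesin is a ring that holds sister chromatids together from replication until anaphase. For the ring to hold, Esco1 and Esco2 acetylate its Smc3 subunit, Cdca5 (sororin) then keeps the releasing factor away, and Hdac8 removes the acetyl mark so that the ring can be used again. Condensin I is a related ring of Smc2 and Smc4 closed by the kleisin Ncaph, with Ncapd2 and Ncapg as its other subunits, and it folds chromosomes for mitosis, while Smc5 works with Smc6 in DNA repair. Limb bud mesenchyme of this stage divides rapidly, and many of these genes are known to be made mainly in dividing cells.

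The genotype labels were checked on Nipbl, which read 10.32 to 10.72 in wild type and 9.54 to 9.97 in Nipbl+/- buds (log2 intensity), without overlap, a ratio of 0.630 (adjusted p = 2.42e-09, limma with Benjamini-Hochberg adjustment over all genes, as for every adjusted p of a genotype difference below). All 8 hindlimb mesenchyme markers, among them Tbx4 and Pitx1, lay between the 78.1th and 99.1th percentile of the genes by mean level. Markers of other cells were read too, from the 43.2th to the 99.9th percentile for erythroid, 63.8th to 94.3th for endothelial, 47.7th to 83.3th for ectoderm, 42.0th to 65.4th for muscle precursor, 35.0th to 55.7th for nerve and Schwann precursor and 26.0th to 54.0th for macrophage genes. Probe sets respond differently, so these percentiles do not rank cell types. Of all marker lists 1 gene was called, beside 0.813% of all genes. It was Erbb3 of Schwann precursors, at a ratio of 1.19 (adjusted p = 0.0499). The mean level of the list that holds Erbb3 was 6.93 to 7.29 in wild type and 7.11 to 7.45 in Nipbl+/- buds. In whole buds, fewer cells of a type and less RNA per cell cannot be told apart. On quality, 3 arrays stood apart, wild type embryo 3 and Nipbl+/- embryos 2 and 9, with limma array weights of 0.313, 0.243 and 0.434 against 0.713 to 2.20 for the others.

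Motifs of the cell cycle were searched on both strands in the 250 bases before each gene's start, taken from RefSeq on GRCm38.p6: the CHR element (TTTGAA or TTTAAA), the CCAAT box (CCAAT) and the E2F site (TTTGGCGC, TTTCCCGC, TTTCGCGC or TTTGCCGC). A window was at hand for 7 of the 10 genes, not for Esco1, Esco2 and Smc4. In Hdac8, Smc5, Ncapd2 and Ncapg the RefSeq gene reaches upstream of the start used, so their windows lie in part or wholly inside the gene. A CHR element stood in 5 of the 7 windows against 25.2% of all 32851 windows, a CCAAT box in 4 against 33.8%, and an E2F site in 1, that of Ncapd2, against 1.86%. Most of these came from the windows that lie in part or wholly inside the gene. Among Cdca5, Smc2 and Ncaph, only Cdca5 and Smc2 held a CHR element, only Smc2 a CCAAT box, and none an E2F site. Cdca5, with a pair of CHR elements close to its start, Smc2, with 1 CHR element and 1 CCAAT box, and Ncaph, with no match, are shown as contrasting cases, at chr19:6084847-6085096 (plus strand), chr4:52438971-52439220 (plus strand) and chr2:127133955-127134204 (minus strand), each written 5′ to 3′ with matches in capitals.
Cdca5: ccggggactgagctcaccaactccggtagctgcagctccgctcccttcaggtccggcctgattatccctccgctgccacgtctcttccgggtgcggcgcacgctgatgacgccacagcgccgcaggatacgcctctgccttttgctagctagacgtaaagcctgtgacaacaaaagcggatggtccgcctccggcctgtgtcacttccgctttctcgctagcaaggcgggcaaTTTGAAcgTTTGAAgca
Smc2: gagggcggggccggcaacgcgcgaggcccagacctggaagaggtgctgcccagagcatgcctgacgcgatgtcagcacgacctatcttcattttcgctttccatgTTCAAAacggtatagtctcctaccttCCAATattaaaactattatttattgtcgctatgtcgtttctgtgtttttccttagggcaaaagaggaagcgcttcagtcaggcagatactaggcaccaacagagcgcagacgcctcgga
Ncaph: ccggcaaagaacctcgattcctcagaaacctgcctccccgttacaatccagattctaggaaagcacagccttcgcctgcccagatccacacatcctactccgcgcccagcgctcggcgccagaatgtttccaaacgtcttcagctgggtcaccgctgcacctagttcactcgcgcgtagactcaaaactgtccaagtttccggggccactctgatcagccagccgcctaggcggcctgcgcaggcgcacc
The CHR elements of Cdca5 began 17 and 9 bases before its start. In Smc2 the CHR element, read on the other strand, began 145 bases and the CCAAT box 119 bases before the start. Ncapg held a CHR element 30 bases and a CCAAT box, on the other strand, 176 bases before its start. A match describes letters only, and no binding was measured.

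Across genotypes none of the 10 genes passed an adjusted p of 0.05 in either direction, beside 0.813% of all genes (57 higher and 105 lower in Nipbl+/- buds). Without adjustment Esco1 alone lay under 0.05, where 9.26% of all genes did. The median difference of the set was 0.024 on the log2 scale, against -0.0049 for all genes. Of the 10 differences 8 were above 0, as were 46.5% of those of all genes. The 95% intervals of the 10 genes together ran from -0.16 to 0.31, that is, from a ratio of 0.895 to one of 1.24, so changes beyond those bounds lay outside every interval.

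**Figure D1:**
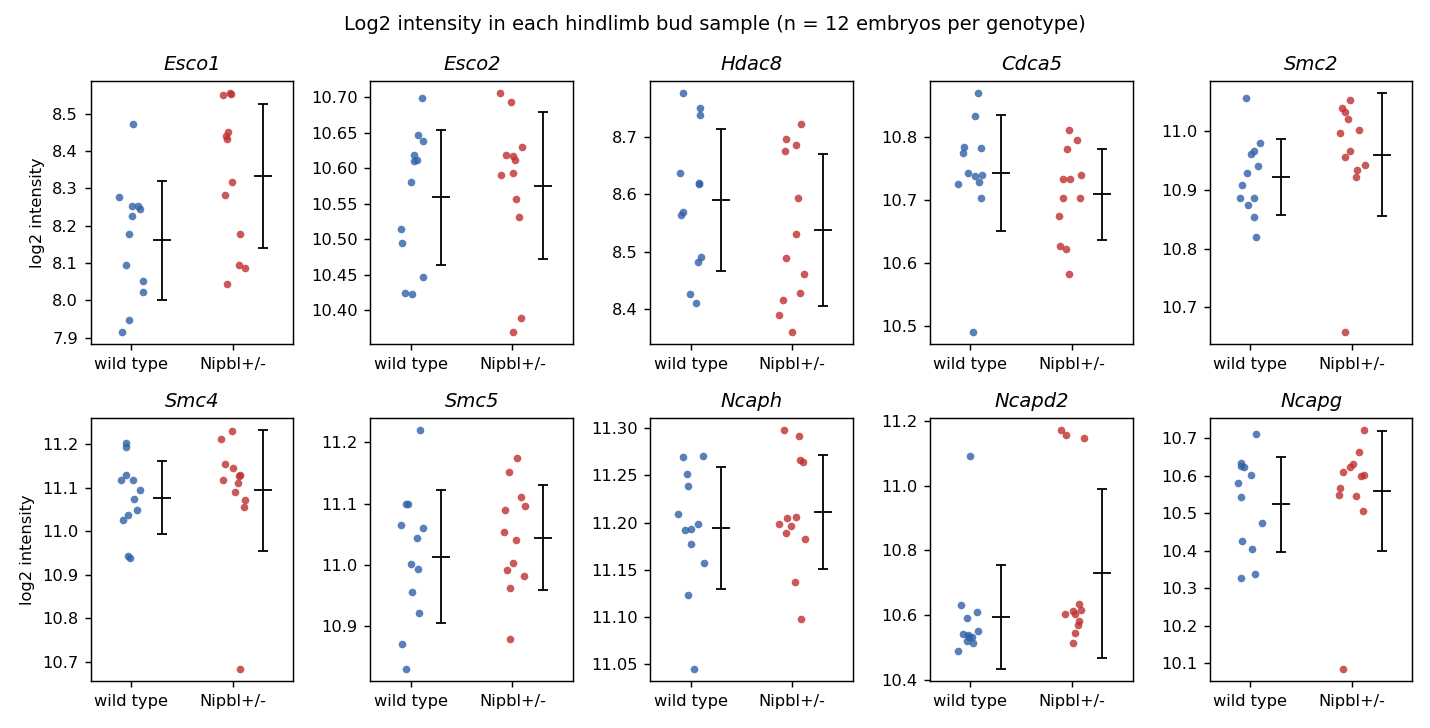
Log2 intensity of each gene in each embryo (y axis, scaled per gene) for 12 wild type (blue) and 12 Nipbl+/- (red) hindlimb bud samples, with the mean and SD in black. The genotypes overlap for every gene, Ncapd2 falls into a cluster of 20 and a cluster of 4 embryos, and 1 Nipbl+/- embryo lies far below the rest for Smc2, Smc4 and Ncapg.

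Among the enzymes that set and keep the acetyl mark, Esco1 had the largest difference. Its lowest, median and highest log2 intensities were 7.91, 8.20 and 8.47 in wild type embryos and 8.04, 8.37 and 8.55 in Nipbl+/- embryos. The ranges overlapped for most of their length, and 9 of 12 Nipbl+/- embryos lay above the wild type mean. Means were 8.16 ± 0.16 (SD, n = 12) and 8.33 ± 0.19 (SD, n = 12), a log2 difference of 0.17 (95% interval 0.031 to 0.31), or a ratio of 1.13 (1.02 to 1.24). The difference did not pass the test (adjusted p = 0.363). Esco1 had a dimmer second probe set, which read 7.43 to 8.14 in wild type and 7.52 to 8.19 in Nipbl+/- embryos, at a ratio of 1.07 with 7 of 12 Nipbl+/- embryos above the wild type mean.

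Esco2, the paralog that acts in S phase, read 10.42, 10.60 and 10.70 (lowest, median, highest) in wild type and 10.37, 10.60 and 10.71 in Nipbl+/- buds. Both medians were the same to the second decimal and the ranges overlapped, that of Nipbl+/- buds reaching lower. Its ratio was 1.01 (95% interval 0.952 to 1.07, adjusted p = 0.974). Esco2 lay at the 88.3th percentile of all genes and Esco1 at the 57.6th. Esco1 varied more among embryos of a genotype than 80.0% of all genes.

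Cdca5, the protector of acetylated cohesin, ranged from 10.49 to 10.87 (median 10.74) in wild type and from 10.58 to 10.81 (median 10.72) in Nipbl+/- buds. The Nipbl+/- values lay inside the wild type range, with 9 of 12 under the wild type mean. Its ratio was 0.977 (95% interval 0.926 to 1.03, adjusted p = 0.889).

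Hdac8, the deacetylase of Smc3, is X-linked. It read 8.41, 8.59 and 8.78 (lowest, median, highest) in wild type and 8.36, 8.51 and 8.72 in Nipbl+/- buds, again overlapping, at a ratio of 0.964 (95% interval 0.895 to 1.04, adjusted p = 0.864). The genotypes were not balanced for sex: Xist, the transcript that silences 1 X chromosome in females, averaged 9.98 ± 3.17 in the 12 wild type embryos and 7.20 ± 3.01 in the 12 mutants (± SD). With sex in the model the log2 difference of Hdac8 was -0.082 (adjusted p = 0.789). The other class I deacetylases on the list, Hdac1, Hdac2 and Hdac3, had ratios of 1.02, 0.984 and 0.990, and none was called.

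**Figure D2:**
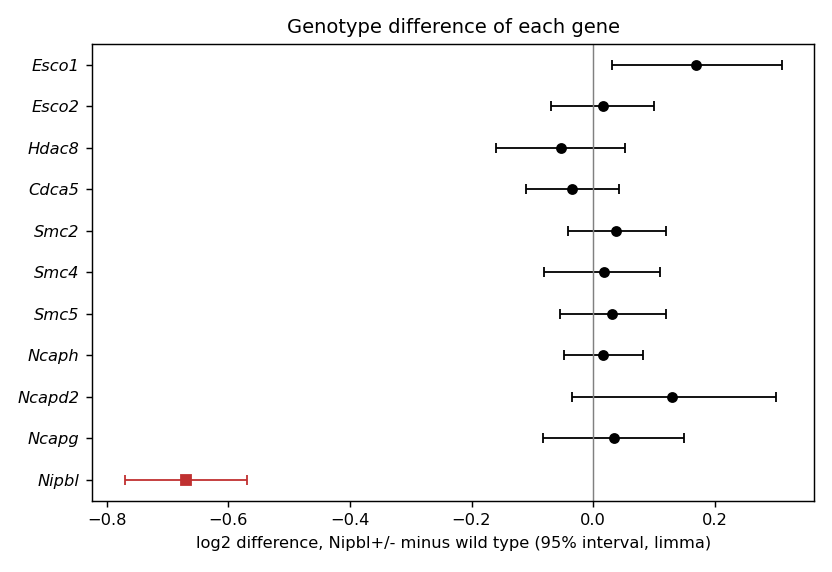
Log2 difference between Nipbl+/- and wild type buds (x axis) with its 95% limma interval for each of the 10 genes (black circles) and for Nipbl (red square), n = 12 embryos per genotype. Only the intervals of Esco1 and Nipbl leave out 0, and that of Nipbl lies at -0.77 to -0.57.

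The arms of condensin I were not called. Smc2, an ATPase arm of the ring, read 10.82, 10.92 and 11.06 (lowest, median, highest) in wild type and 10.66, 10.98 and 11.05 in Nipbl+/- buds. Smc4, the partner arm, read 10.94, 11.08 and 11.20 in wild type and 10.68, 11.12 and 11.23 in Nipbl+/- buds. For both arms the lowest value of all 24 embryos was that of Nipbl+/- embryo 2, and the rest overlapped. The ratios were 1.03 for Smc2 (95% interval 0.972 to 1.09, adjusted p = 0.873) and 1.01 for Smc4 (0.946 to 1.08, adjusted p = 0.976).

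Ncaph, the kleisin that closes the ring, was the steadiest of the set. It read 11.04, 11.20 and 11.27 in wild type and 11.10, 11.20 and 11.30 in Nipbl+/- buds, at a ratio of 1.01 (95% interval 0.967 to 1.06, adjusted p = 0.961). Its residual SD within a genotype was 0.063 against a median of 0.13 over all genes, and 2.74% of genes had a smaller one. Ncapg, a subunit that binds DNA with Ncaph, read 10.33, 10.56 and 10.71 in wild type and 10.08, 10.60 and 10.72 in Nipbl+/- buds. The lowest Ncapg value was again that of Nipbl+/- embryo 2, and the ratio was 1.02 (95% interval 0.944 to 1.11, adjusted p = 0.952).

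Ncapd2, the other HEAT-repeat subunit of condensin I beside Ncapg, did not vary smoothly. In 20 embryos it read 10.49 to 10.63, in the other 4 it read 11.09 to 11.17, and no embryo lay between. The 4 bright embryos were wild type embryo 6 and Nipbl+/- embryos 4, 7 and 8, so both genotypes held both levels. The gap of 0.46 on the log2 scale compares with widest gaps of 0.04 to 0.26 between neighbouring embryos for the other 9 genes. Genotype means were 10.59 ± 0.16 and 10.73 ± 0.26 (SD, n = 12 each), a ratio of 1.10 (95% interval 0.977 to 1.23, adjusted p = 0.684), and the medians, 10.54 and 10.61, differed by 0.07. Of the bright embryos 3 were Nipbl+/-. No correlation with other genes is given for Ncapd2, since its values form separate clusters. A small Cajal body RNA gene, Scarna10, lies inside Ncapd2 in the annotation. Its part in the signal, and any other cause of the split, was not tested.

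Smc5, of the SMC5/6 repair complex, read 10.83, 11.02 and 11.22 in wild type and 10.88, 11.05 and 11.17 in Nipbl+/- buds. The Nipbl+/- range lay inside that of wild type, at a ratio of 1.02 (95% interval 0.963 to 1.08, adjusted p = 0.925). Its partner Smc6 averaged 10.61 ± 0.12 against 10.76 ± 0.094 in the mutant (SD, n = 12 each), with 11 of 12 Nipbl+/- embryos above the wild type mean. At a ratio of 1.11 Smc6 did not pass (adjusted p = 0.150). It passed with Nipbl+/- embryo 2 left out, at a log2 difference of 0.17 (adjusted p = 0.0334). Smc6 did not pass with all 3 arrays of low weight left out.

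Arrays differed within genotype along 1 main axis, the first principal component of the residuals, which took up 34.3% of the variance left after genotype. The 3 arrays of low weight had the highest scores on it, 0.44, 0.46 and 0.28. Of the 10 genes 7 correlated with it beyond 0.5 in size, beside 55.5% of all genes. Leaving aside Ncapd2 with its separate clusters, the correlations ran from -0.86 for Esco1 and -0.85 for Smc5 to -0.34 for Ncaph. The component was taken from residuals after genotype, so as a covariate it cannot change a difference, only its p. With the component in the model Esco1 was called (log2 difference 0.17, adjusted p = 0.0131), when 2.58% of all genes were. Over all alternatives its adjusted p ran from 0.0131 to 0.646, and it passed in that model alone. The component was drawn from the same arrays, Esco1 included, and what it stands for was not tested.

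**Figure D3:**
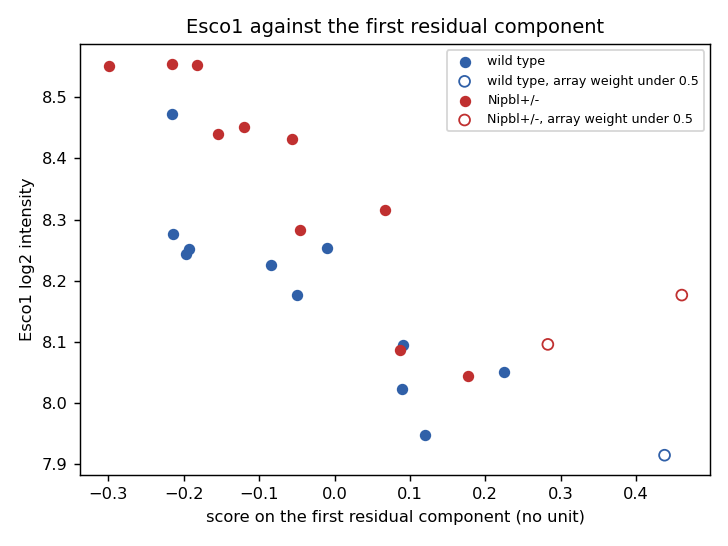
Esco1 log2 intensity (y axis) against the score on the first residual component (x axis, no unit) for 12 wild type (blue) and 12 Nipbl+/- (red) embryos, open circles being the 3 arrays of weight under 0.5. Esco1 falls as the score rises (r = -0.86 within genotype), and the genotypes overlap in its level.

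From embryo to embryo, most genes of the set varied in the same direction. Over the residuals of 24 embryos from their genotype means, 34 of the 36 pairs without Ncapd2 had a Pearson r above 0, with a median of 0.52, and 22 passed a permutation test within genotype adjusted over 45 pairs (16 by Spearman's rho). Many such correlations were common among all genes: 10.8% correlated with Esco1 at least as well as Esco2 did, 18.7% with Esco1 as well as Ncapg, 14.2% with Hdac8 as well as Cdca5, and 17.4% with Cdca5 as well as Ncapg. Other pairs were less common: 1.08% correlated with Esco1 at least as well as Smc5 did, and 2.93% with Smc5 as well as Ncapg. For Hdac8 with Smc5 the share was 4.48%, and for Esco2 with Ncapg 5.13%. With the residual component removed 3 pairs passed and the median r was -0.046. An r above 0 then remained in 17 of the 36 pairs, and the lowest was -0.51. With the 3 arrays of low weight left out 5 passed and the median was 0.39. The part of array quality in the shared variation was not tested beyond these values.

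The 3 pairs that passed without the component joined the arms of condensin I and Ncapg to each other. Smc2 and Smc4 had r = 0.86 (permutation p = 1.10e-04, adjusted p = 0.00124) and rho = 0.59 (permutation p = 0.00285, adjusted p = 0.0121), with r = 0.82 once the component was removed (permutation adjusted p = 0.00157). Smc2 and Ncapg had r = 0.83 (permutation p = 1.10e-04, adjusted p = 0.00124) and rho = 0.66 (permutation p = 6.10e-04, adjusted p = 0.00476), with r = 0.74 once the component was removed (permutation adjusted p = 0.00345). Smc4 and Ncapg had r = 0.81 (permutation p = 7.60e-04, adjusted p = 0.0042) and rho = 0.50 (permutation p = 0.0166, adjusted p = 0.0441), with r = 0.81 once the component was removed (permutation adjusted p = 0.00157).

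Part of this rested on few embryos. In Nipbl+/- embryo 2, an array of low weight, Smc2 read 10.66, Smc4 10.68 and Ncapg 10.08, below every other embryo, while Ncaph at 11.20 was at its median. Without that embryo the correlations were 0.65, 0.62 and 0.55 in the order given above. With the 2 embryos farthest from the median of the first gene of each pair left out, they were 0.62, 0.57 and 0.46. Without the 3 arrays of low weight they were 0.64, 0.72 and 0.64 (permutation adjusted p = 0.0338, 0.00776 and 0.0529). Smc5, outside condensin I, had r = 0.64 with Smc2 (permutation adjusted p = 0.00252), and 0.33 with the component removed (permutation adjusted p = 0.331). Without the 3 arrays Smc5 had 0.73 with Smc2 and 0.73 with Ncapg (permutation adjusted p = 0.00776 for each), above the values of the condensin pairs.

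**Figure D4:**
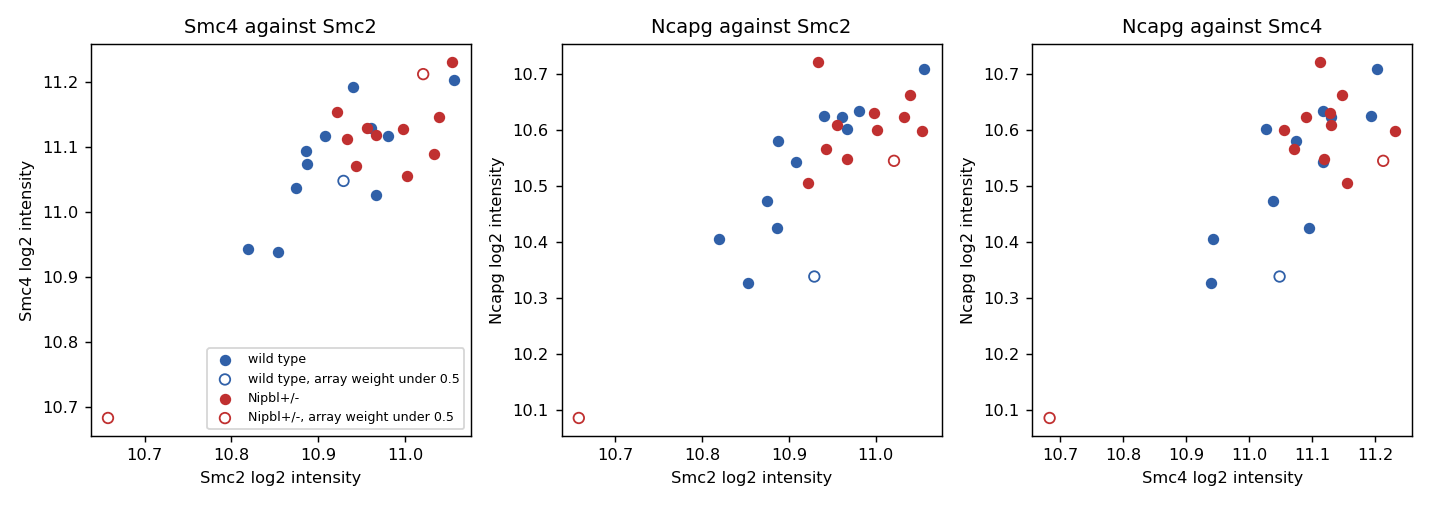
Log2 intensities of Smc2, Smc4 and Ncapg against each other in 12 wild type (blue) and 12 Nipbl+/- (red) embryos, open circles being the 3 arrays of weight under 0.5. The 3 genes rise together, and Nipbl+/- embryo 2 lies alone at the lower left of each panel.

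The kleisin Ncaph, the steadiest of the set (residual SD 0.063), did not follow the arms it joins. The part of this small spread in its low correlations was not tested. Its r was -0.017 with Smc2, 0.066 with Smc4 and 0.25 with Ncapg, and its closest pairing was with Esco1 at 0.49 (permutation p = 0.017, adjusted p = 0.0364; rho = 0.47, adjusted p = 0.0533). With the component removed that pair was at 0.41 and did not pass (permutation adjusted p = 0.229). Ranks among all genes are a description, with the residual component and Nipbl+/- embryo 2 still in the residuals. By them 0.0451% of all genes correlated with Smc2 at least as well as Smc4 did, 0.196% as well as Ncapg, and 42.1% as well as Ncaph. Seen from Ncapg the same pairs were less select, with 1.47% of all genes at least as well correlated as Smc2 and 2.25% as Smc4. For Smc5, outside condensin I, the share seen from Ncapg was 3.85%.

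**Figure D5:**
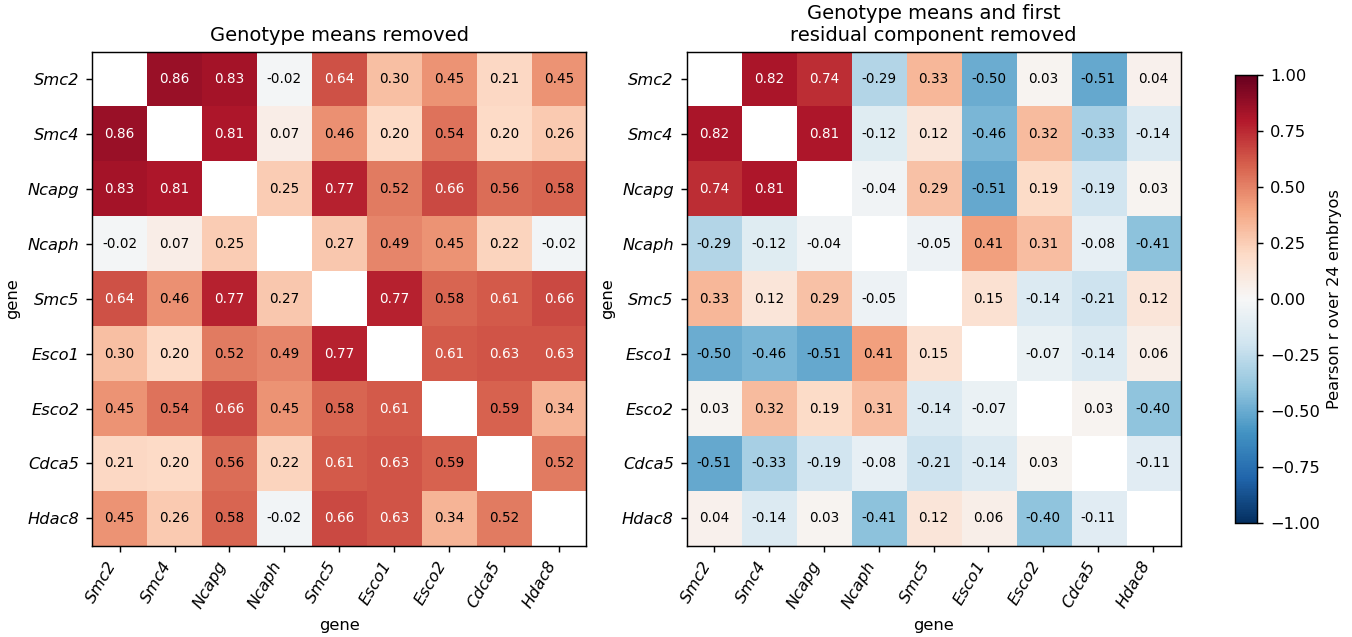
Pearson r between 9 of the genes over 24 embryos (colour and number in each cell, red for positive), with genotype means removed (left) and with the first residual component removed as well (right). The block of Smc2, Smc4 and Ncapg stays at 0.74 to 0.82 on the right, while most other pairs fall, many of them below 0 and the lowest to -0.51.

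The remaining high correlations fell once the component was removed. Esco1 and Smc5 had r = 0.77 (permutation p = 3.00e-05, adjusted p = 6.75e-04; rho = 0.82, adjusted p = 2.25e-04), which fell to 0.15 with the component removed (permutation adjusted p = 0.808) but was 0.74 without the 3 arrays of low weight (permutation adjusted p = 0.0063). Smc5 and Ncapg likewise had 0.77 (permutation p = 1e-05, the smallest these permutations can give, adjusted p = 4.50e-04) and rho = 0.84 (adjusted p = 2.25e-04), then 0.29 with the component removed (permutation adjusted p = 0.405) and 0.73 without the 3 arrays (permutation adjusted p = 0.00776). The paralogs Esco1 and Esco2 had 0.61 (permutation p = 0.00203, adjusted p = 0.00669; rho = 0.58, adjusted p = 0.0121), then -0.068 with the component removed (permutation adjusted p = 0.917) and 0.45 without the 3 arrays (permutation adjusted p = 0.098).

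Among all genes, the closest match of each was named as a description, over the 24 residuals from the genotype means with the residual component and Nipbl+/- embryo 2 still in them. The gene most like Ncapg was Asf1a, a histone chaperone, at r = 0.95. That most like Smc2 was the deacetylase Hdac2 at 0.89, and that most like Smc4 was Ncoa4 at 0.90. Smc5 was matched best by Zfp160 (0.93), Cdca5 by Me1 (0.90), Hdac8 by Cyld (0.89), Esco1 by Bbs4 (0.88), Esco2 by Cask (0.88) and Ncaph by Trappc2 (0.83).

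The wider machinery of cohesion and condensation gave no calls, beside 0.813% of all genes called in either direction. At that share lists of 17 and 13 genes can hold none. Of 17 other cohesion genes none was called and none reached an unadjusted p of 0.05 in limma, where 9.26% of all genes did. Their median log2 difference was 0.011, with ratios of 1.06 for the helicase Ddx11 (adjusted p = 0.557), 1.08 for the releasing factor Wapl (adjusted p = 0.677) and 0.967 for the mitotic kinase Aurkb (adjusted p = 0.674). Of 13 other condensin and Smc genes none was called and 1, Smc6, lay under an unadjusted 0.05, with a median of 0.013. The condensin II kleisin Ncaph2 had a ratio of 0.968 (adjusted p = 0.862), as had topoisomerase Top2a (adjusted p = 0.864).

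Esco1, Esco2, Hdac8 and Cdca5 act on the cohesin ring. Of 7 genes of that ring and its loader 1 was called higher and 1 lower, beside 0.813% of all genes called in either direction. The lower 1 was Nipbl itself. Stag1 RNA rose from 10.10 ± 0.10 to 10.32 ± 0.089 (SD, n = 12 each), a ratio of 1.16 (adjusted p = 0.00439), with 12 of 12 Nipbl+/- embryos above the wild type mean. Stag2, its paralog, had a ratio of 1.08 and did not pass (adjusted p = 0.689). Mau2, which pairs with Nipbl to load cohesin, had a ratio of 0.979 (adjusted p = 0.906).

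Cell cycle genes give the background against which S phase and mitotic factors can be read. Of 20 S phase genes 2 rose, beside 0.813% of all genes called in either direction. Pcna, the sliding clamp that also docks Esco2 at replication forks, went from 13.14 ± 0.11 to 13.42 ± 0.092 (SD, n = 12 each), a ratio of 1.21 (adjusted p = 7.72e-04), at a log2 difference of 0.28, which was 0.17 with the mean of its probe sets in place of the brightest (adjusted p = 0.00376). The cyclin Ccne1 went from 11.61 ± 0.055 to 11.75 ± 0.058, a ratio of 1.10 (adjusted p = 0.0133). For both, 12 of 12 Nipbl+/- embryos lay above the wild type mean. The helicase subunit Mcm3 had a ratio of 0.922 and did not pass (adjusted p = 0.404), and the median of the list was 0.035. Of 22 measured G2 and M phase genes none passed, with a median of 0.021, the smallest p belonging to the spindle motor Kif11 at a ratio of 1.08 (adjusted p = 0.193). Kif11 passed without the 3 arrays of low weight, at a log2 difference of 0.13 (adjusted p = 0.0280), and without Nipbl+/- embryo 2 alone, at 0.14 (adjusted p = 0.0221).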

How the data were processed

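Array files were summarised by the authors in GenePattern (Expression File Creator), and the submitters' notes name RMA (version not given in the sources used here). The deposited values are log2 intensities of 28159 probe sets on 24 arrays, background-corrected and quantile-normalized together, with array medians of 7.24 to 7.39. RMA tends to compress ratios. Of the probe sets 21640 carried 1 gene symbol in GEO's platform annotation, 1321 several and 5198 none, and only the first were used, the brightest per gene. Genotype differences were fitted with limma 3.58.1 (lmFit and eBayes, R 4.3.3) over 19937 genes with Benjamini-Hochberg adjustment, and a gene was called at an adjusted p under 0.05. Correlations used 100000 permutations within genotype, two-sided. The fit was tested on simulated data. The number of embryos limits the precision. The 10 genes and all gene lists were chosen with earlier results of these data known. Named beyond them were genes called in a list, up to 2 per direction with the smallest p, and best-correlated genes. Alternatives were another probe set rule, a filter on the dimmest 20%, other variance, weight, scaling and covariate settings, a Welch test on linear intensities, and each array left out. Protein features were not analysed here.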

Additional observations from a re-analysis of the deposited data

How the results depend on the processing

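Each of the 10 differences was recomputed under 34 alternatives, 24 of which left out 1 array. Of the 340 values 339 kept their direction and their side of the threshold. The filter on dim genes, the variance setting, the replicate block and the component could not change a difference, only its p. The probe set rule could change only that of Esco1. The exception was Esco1 with the residual component as a covariate (0.17, adjusted p = 0.0131), which gave 1 gene of the set called higher. Over the left-out arrays Esco1 lay between 0.15 and 0.20. The number of all genes higher was 101 with array weights, 30 with sex and 222 with the component, and 36 to 72 with 1 array left out, the lowest without wild type embryo 4 or 5 (36) or 6 (37). The number lower was 180 with array weights, 293 with the component, and 74 to 149 with 1 array left out. Among other condensin and Smc genes 1, Smc6, was called with array weights and with the component, and 0 to 1 with 1 array left out (Nipbl+/- embryo 2). None of them was called without the 3 arrays of low weight. Among G2 and M phase genes 1, Kif11, was called with array weights, with the component and without the 3 arrays of low weight, and 0 to 1 with 1 array left out (the same embryo). Those arrays were chosen after seeing the data. Correlated pairs numbered 3 with the component removed and 5 without the 3 arrays, and Esco1 with Esco2 turned to -0.068 with the component removed. The cause was not tested. What the replicate numbers of the titles mark is not stated. Residual correlations between embryos of the same number ran from -0.355 to 0.282, over 0.1 in 5 of 12 numbers. Of 12 embryos 3 were best matched by their own number. These values cannot settle whether equal numbers mark a pair. With the replicate block 48 genes were higher and 121 lower, Esco1 stood at 0.17 (adjusted p = 0.534), and no call in the set changed.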
